A study of Mus musculus with 10 samples.

Results

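Metabotropic glutamate receptors and their Homer scaffold proteins were examined in the amygdala of mice with and without neuropsin, the secreted serine protease encoded by Klk8. The genes were 6 receptor genes, Grm2, Grm3, Grm4, Grm5, Grm7 and Grm8, and the 3 scaffold genes Homer1, Homer2 and Homer3, which is 9 of the 22103 genes named on the array. A probe set was counted when the platform annotation gave it exactly 1 gene symbol, which gave 163 probe sets for the 9 genes. The neuropsin-/- group was 5 arrays of 3-month-old knockout mice, from a line crossed back to C57BL/6 over 12 generations. The wild-type group was 5 arrays of C57BL/6 mice of the same age, and every mouse of both groups carried that background. Each array held amygdala RNA pooled from 3 of the 15 animals of its genotype, hybridised to a GeneChip Mouse Exon 1.0 ST array, on which a probe set covers roughly an exon. The labels do not say which exons of Klk8 were removed or that each array was a separate pool, so p-values measure the spread between these arrays. In dissected bulk tissue, fewer cells of a type and less RNA per cell cannot be told apart.

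Metabotropic glutamate receptors are G protein-coupled receptors that tune glutamate synapses. Group I receptors such as mGlu5 (Grm5) couple to Gq, activate phospholipase C and lie mostly around the postsynaptic density. Group II receptors (Grm2, Grm3) and group III receptors (Grm4, Grm7, Grm8) couple to Gi/o, lower cyclic AMP and lie largely on presynaptic terminals, and mGlu3 is also found on astrocytes. Homer proteins bind a proline-rich motif in group I receptors, Shank proteins and inositol trisphosphate receptors. Long Homer forms carry a coiled coil and link these partners together, whereas the short form Homer1a lacks it, is induced by neuronal activity and uncouples them. In the amygdala, mGlu5 is known for its part in fear learning.

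Of the 3 Homer genes, Homer1 is the one known to be induced by activity, so the stretches before their transcription starts are shown together for comparison. Capitals mark TGACGT, the core of the cyclic AMP response element bound by CREB, searched on both strands. The sequences are 250 bases before the annotated start, from RefSeq on GRCm38.p6, and the start shown is that of the upstream transcript of Homer1 (chr13:93303507-93303756, plus strand) and of Homer2 (chr7:81706926-81707175, minus strand) and the listed start of Homer3 (chr8:70282749-70282998, plus strand).
Homer1: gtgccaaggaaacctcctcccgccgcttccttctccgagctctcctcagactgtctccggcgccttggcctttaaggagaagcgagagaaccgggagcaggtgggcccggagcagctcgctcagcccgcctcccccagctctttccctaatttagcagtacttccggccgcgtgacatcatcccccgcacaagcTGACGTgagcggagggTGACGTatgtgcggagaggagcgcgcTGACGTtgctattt
Homer2: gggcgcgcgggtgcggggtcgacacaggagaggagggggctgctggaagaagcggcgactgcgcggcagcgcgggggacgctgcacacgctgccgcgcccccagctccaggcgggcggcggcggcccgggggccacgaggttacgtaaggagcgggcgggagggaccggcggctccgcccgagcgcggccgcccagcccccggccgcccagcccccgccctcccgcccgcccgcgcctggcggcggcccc
Homer3: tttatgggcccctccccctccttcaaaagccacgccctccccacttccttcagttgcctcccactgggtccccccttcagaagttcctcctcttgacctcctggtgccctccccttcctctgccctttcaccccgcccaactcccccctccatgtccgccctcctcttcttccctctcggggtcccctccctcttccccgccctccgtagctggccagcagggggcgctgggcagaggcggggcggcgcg
The Homer1 window held 3 copies, all in the orientation of the gene, and the windows of Homer2 and Homer3 held 0. A window was listed for 7 of the 9 genes (12 windows in all), and no other window of theirs held the motif, the second start of Homer1 included. Among 32851 listed windows of this length, 6.469% held the motif and 0.152% held it 3 times or more. A match is a string of letters in this window and no evidence that a factor is bound there.

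Levels are log2 values, so a difference of 1 is a doubling, and differences are knockout minus wild type. The gene level was the mean of a gene's probe sets whose mean over the 10 arrays passed 4.94, the median of all probe sets, a filter that 144 of the 163 probe sets passed. All 9 genes were measured, by 9 to 23 such probe sets each. The mean of the 9 Klk8 probe sets was 5.02 ± 0.29 in the knockout and 5.17 ± 0.27 in wild type (SD, n = 5 each, exact permutation p = 0.413, two-sided). On probe set 4485756 of Klk8, singled out with its values known, the knockout arrays (3.56 to 5.38) lay below the wild-type arrays (5.48 to 6.07). Wild-type arrays 4 and 5 stood apart on the first principal component of all gene levels, at 20.5 and 23.5, where the other 8 arrays lay between -14.2 and 7.45. Without them 34.1% of all genes were higher in the knockout and the median difference of all genes was -0.05, so counts without these arrays are to be read against that share.

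None of the 9 genes passed at the gene level (limma, Benjamini-Hochberg adjusted p under 0.05 over 16367 genes), where 0.0244% of all genes did, and 0 of the 9 had an unadjusted p under 0.05, where 6.98% did. Of the 9, 5 were higher and 4 lower in the knockout, with a median difference of 0.03, beside 49.3% higher, 50.7% lower and a median of -0.0019 among all genes. The 2 genotypes overlapped on every one of the 9, while the groups did not overlap in 1.55% of all genes. The differences ran from -0.20 for Grm4 to 0.14 for Homer1. The bounds of their 95% intervals lay between -0.41 and 0.35, that is, between 0.751-fold and 1.28-fold of the wild-type level.

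**Figure D1:**
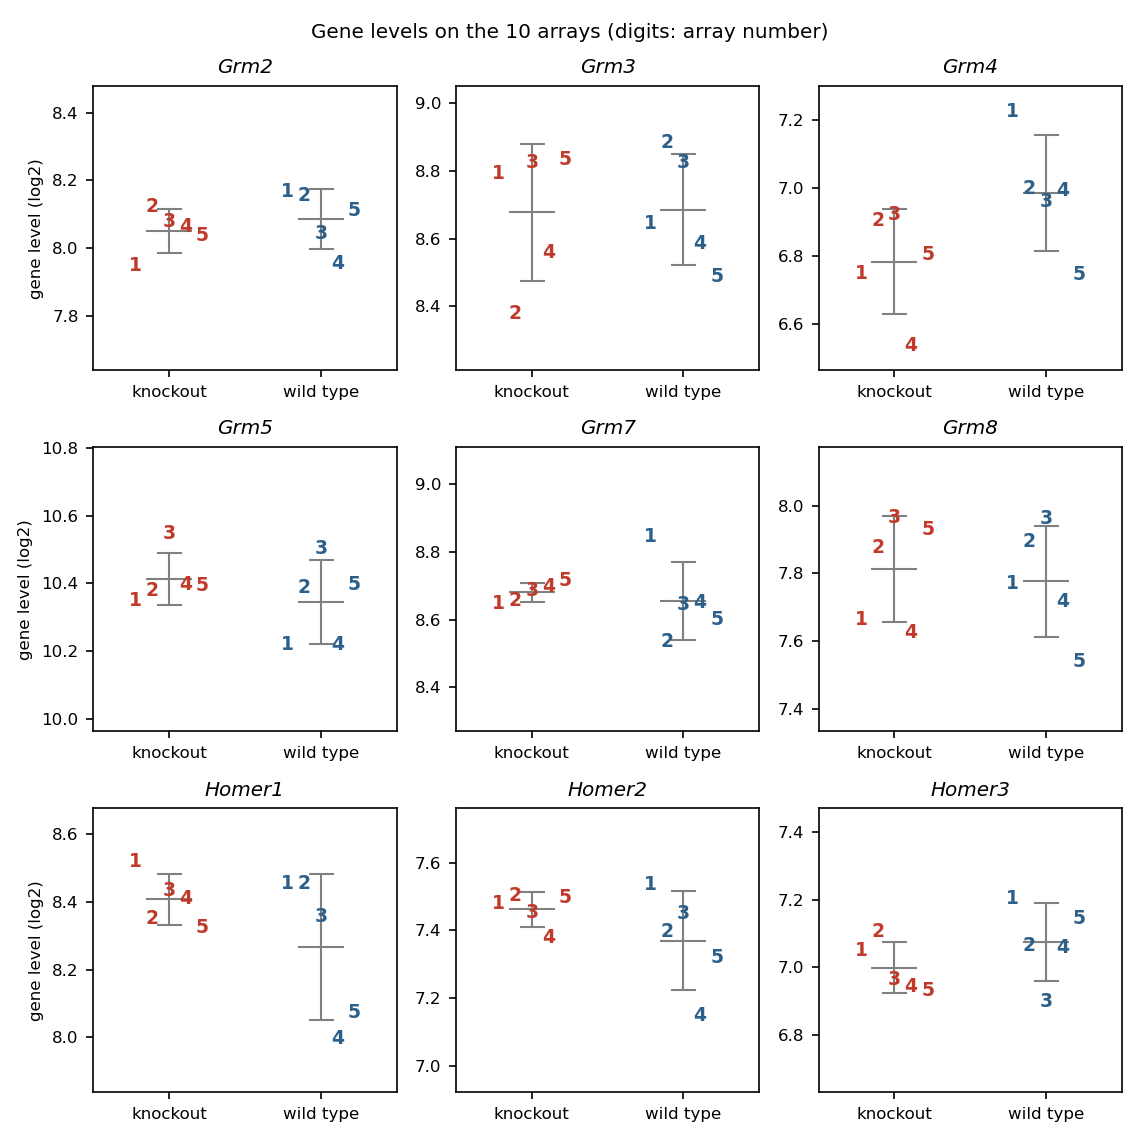
Gene level (log2) of each gene on each array, knockout left and wild type right; digits are array numbers, and grey bars show mean ± SD of 5 arrays. Every panel spans the same height, the groups overlap in all 9 panels, and wild-type arrays 4 and 5 (7.997 and 8.07) lie below the other 8 for Homer1.

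Grm5, the group I receptor gene, was at 10.35, 10.38, 10.55, 10.40 and 10.39 on knockout arrays 1 to 5, against 10.22, 10.39, 10.50, 10.22 and 10.40 on wild-type arrays 1 to 5. Array 3 was the highest of each genotype, and wild-type arrays 1 and 4 were the lowest of all. The means were 10.41 ± 0.08 in the knockout and 10.35 ± 0.12 in wild type (SD, n = 5 each), a difference of 0.07 with a 95% interval of -0.10 to 0.24 (limma adjusted p = 0.876). Of its 17 probe sets above the filter, 10 were higher and 7 lower in the knockout, from -0.16 to 0.38.

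Grm2, a group II receptor gene of presynaptic terminals, was at 7.95, 8.12, 8.08, 8.06 and 8.04 on knockout arrays 1 to 5, against 8.17, 8.16, 8.04, 7.95 and 8.11 on wild-type arrays 1 to 5. All 10 arrays lay within a narrow band, and the pooled within-group SD of Grm2, 0.0773, was among the smaller ones, with 5.64% of genes below it. The difference was -0.04 (95% interval -0.19 to 0.12, limma adjusted p = 0.932). Grm3, the group II receptor gene also known from astrocytes, was at 8.79, 8.38, 8.83, 8.56 and 8.83 on knockout arrays 1 to 5, against 8.65, 8.88, 8.82, 8.59 and 8.49 on wild-type arrays 1 to 5. Knockout array 2 was the lowest and wild-type array 2 the highest, and the genotypes covered nearly the same range. The difference of -0.01 (95% interval -0.24 to 0.22, limma adjusted p = 0.994) took either sign depending on the settings used, and was -0.11 without wild-type arrays 4 and 5 (limma adjusted p = 0.764). Of 12 astrocyte markers 3 were higher and 9 lower, with a median of -0.04, and without those arrays 2 were higher and 10 lower, with a median of -0.14; their part in the Grm3 values was not tested.

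Grm4, a group III receptor gene, had the difference furthest from 0 among the 9. It was at 6.75, 6.90, 6.92, 6.54 and 6.80 on knockout arrays 1 to 5, against 7.23, 7.00, 6.96, 6.99 and 6.74 on wild-type arrays 1 to 5. Wild-type arrays 1 to 4 lay above all 5 knockout arrays, and wild-type array 5 lay below 4 of them. The means were 6.78 ± 0.16 in the knockout and 6.98 ± 0.17 in wild type (SD, n = 5 each), a difference of -0.20 with a 95% interval of -0.41 to 0.01 (limma unadjusted p = 0.0611, adjusted p = 0.718). The difference was spread over the gene: 16 of its 17 probe sets were lower in the knockout, with a median of -0.21, although probe sets of a gene share its RNA and are not replicates. The exception, probe set 4750298, differed by 0.34 with 1 low wild-type value, 4.81 on array 5. Without wild-type array 5 the groups did not overlap for Grm4, as for 2.34% of all genes, 1.11% in the same direction; without wild-type arrays 4 and 5 together, 7.99% of all genes did not overlap, 6.40% in that direction.

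Region markers, within and around the amygdala, differed in direction between lists, where 50.7% of all genes were lower in the knockout. Among striatal and intercalated-cell markers 11 of 12 were lower (median -0.18), with list means of 7.80 to 8.32 in the knockout and 8.17 to 8.52 in wild type. Knockout array 4 was the lowest for these markers, at -0.46 relative to the mean of all arrays, and it was the lowest for Grm4 as well. This was not particular to striatal markers. The same array was lowest for central and medial amygdala (-0.19), thalamic (-0.12), inhibitory neuron (-0.14) and endothelium and blood (-0.31) markers. It was not the lowest for the other marker lists, such as hypothalamic markers (-0.10). Of 12 hypothalamic markers 11 were lower (median -0.22, list means 6.09 to 6.32 in the knockout and 6.47 to 6.75 in wild type), and among central and medial amygdala markers 9 of 11 were lower (median -0.16, list means 7.33 to 7.52 in the knockout and 7.34 to 7.74 in wild type). Pmch, which defines a hypothalamic cell group, was at 4.34 to 4.93 on the knockout arrays, below the filter value of 4.94, and at 5.35 to 7.59 on the wild-type arrays. The groups did not overlap for 3 of the 12 hypothalamic, 2 of 11 central and medial amygdala, 1 of 9 thalamic and 1 of 8 hippocampal markers. The count was 0 for striatal and for cortical markers, beside 1.55% of all genes. Thalamic markers were lower in 8 of 9 (median -0.14). Cortical markers were higher in 8 of 11 (median 0.06) and hippocampal markers in 4 of 8 (median 0.02). None of the markers of these region lists passed at the gene level (limma, smallest adjusted p = 0.270, for Pmch). Without wild-type arrays 4 and 5 Pmch passed, at -2.68 (limma adjusted p = 1.73e-05), where 5 of all 16367 genes passed. Its level exceeded the filter value on wild-type arrays only, and leaving out these arrays for the lists was chosen after seeing the data. That p-value is therefore no support for a change of Pmch. With wild-type arrays 4 and 5 left out, the markers higher in the knockout were 0 of 12 striatal, 2 of 12 hypothalamic and 1 of 11 central and medial amygdala. They were 0 of 9 thalamic, 7 of 11 cortical and 4 of 8 hippocampal, beside 34.1% of all genes. The part of these markers in the Grm4 difference was not tested.

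Grm7, the group III gene whose receptor sits in the presynaptic active zone, was at 8.65, 8.66, 8.69, 8.70 and 8.72 on knockout arrays 1 to 5, against 8.84, 8.53, 8.64, 8.65 and 8.60 on wild-type arrays 1 to 5. The knockout arrays lay inside the wild-type range, with an SD of 0.028 in the knockout and 0.116 in wild type. The difference was 0.03 (95% interval -0.13 to 0.18, limma adjusted p = 0.957). Grm8, the remaining group III gene, was at 7.67, 7.88, 7.97, 7.63 and 7.93 on knockout arrays 1 to 5, against 7.77, 7.89, 7.96, 7.72 and 7.54 on wild-type arrays 1 to 5. Array 3 was again the highest of each genotype, and the difference was 0.04 (95% interval -0.17 to 0.25, limma adjusted p = 0.953). Both differences changed sign in some of the settings tried.

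Homer1 had the highest positive difference. It was at 8.52, 8.35, 8.43, 8.41 and 8.32 on knockout arrays 1 to 5, against 8.45, 8.45, 8.36, 7.997 and 8.07 on wild-type arrays 1 to 5. Wild-type arrays 1 to 3 lay within the knockout range, and arrays 4 and 5, those that stood apart on the first principal component, lay below all the others. The means were 8.41 ± 0.08 in the knockout and 8.27 ± 0.22 in wild type (SD, n = 5 each), a difference of 0.14 with a 95% interval of -0.07 to 0.35 (limma adjusted p = 0.79995). Without wild-type arrays 4 and 5 it was -0.01 (limma adjusted p = 0.962). On 14 of the 23 Homer1 probe sets above the filter, wild-type arrays 4 and 5 were the lowest wild-type arrays. On those arrays, relative to the mean of all arrays, basolateral amygdala markers were at -0.26 and -0.07 and myelin markers at -0.05 and -0.45. Other lists were low there too, among them astrocyte markers (-0.16 and -0.14) and cortical markers (-0.20 and -0.07). Hypothalamic markers were not (0.05 and 0.16). The part of any of these markers in the Homer1 levels was not tested.

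Homer2 was at 7.48, 7.50, 7.45, 7.38 and 7.50 on knockout arrays 1 to 5, against 7.53, 7.40, 7.45, 7.15 and 7.32 on wild-type arrays 1 to 5. Wild-type arrays 4 and 5 were the lowest here too, and the difference was 0.09 (95% interval -0.08 to 0.26, limma adjusted p = 0.841). Without them it was 0.0013 (limma adjusted p = 0.996). Homer3, whose product is best known from cerebellar Purkinje cells, was at 7.05, 7.11, 6.97, 6.94 and 6.93 on knockout arrays 1 to 5, against 7.20, 7.07, 6.90, 7.06 and 7.14 on wild-type arrays 1 to 5. Its wild-type arrays 4 and 5 were not low, and the difference was -0.07 (95% interval -0.24 to 0.09, limma adjusted p = 0.867). Across the 10 arrays Homer1 and Homer2 had the highest Pearson correlation among the pairs of these genes, 0.81, a description in which both genes were lowest on wild-type arrays 4 and 5.

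**Figure D2:**
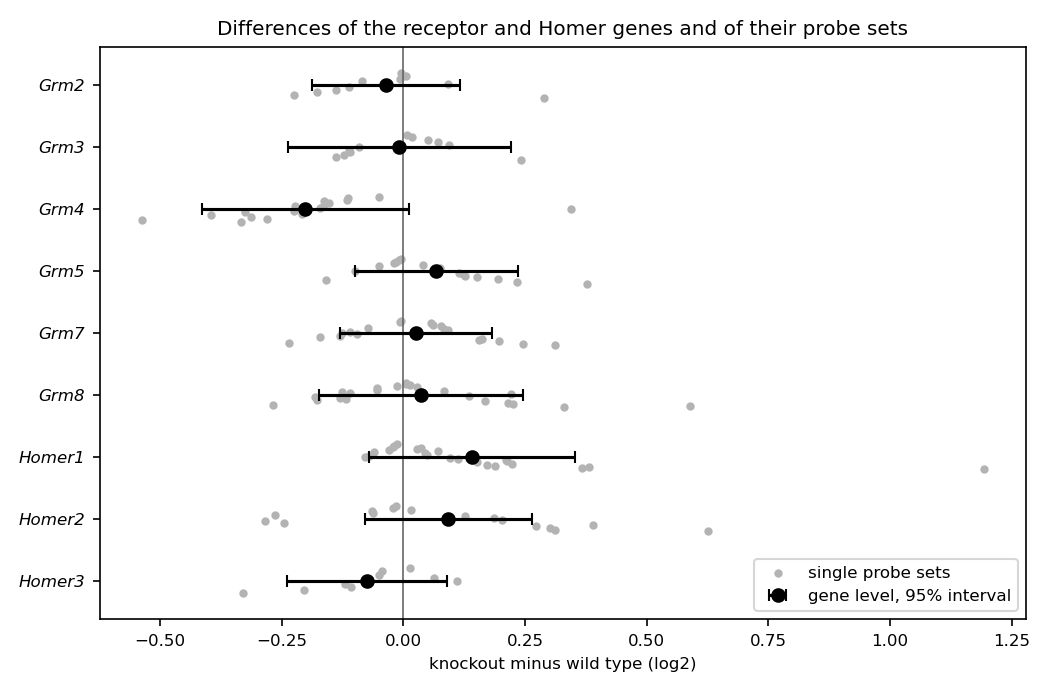
Knockout minus wild type (log2) for each gene (black, with 95% interval) and for its single probe sets above the filter (grey). All 9 intervals include 0; Grm4 sits lowest at -0.20, and a single Homer1 probe set lies far from its gene, at 1.19.

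When probe sets were tested singly, 0 of the 144 passed (limma, smallest adjusted p = 0.829 over 628415 probe sets), where 0.00239% of all probe sets did. An unadjusted p under 0.05 was reached by 1 of the 144, where 5.97% of all probe sets reached it, and none of the 144 had groups that did not overlap, where 1.10% of all did. Of the 144, 70 were higher and 74 lower in the knockout, beside 50.3% higher among all probe sets. The 1 probe set was 4862859 of Homer2, at 6.75, 6.43, 6.82, 6.03 and 5.52 on knockout arrays 1 to 5, against 5.84, 5.34, 5.17, 6.07 and 5.97 on wild-type arrays 1 to 5. Its difference was 0.63 with an SE of 0.27 (limma adjusted p = 0.829), with knockout arrays 1 to 3 above all wild-type arrays and knockout array 5 among the lower ones.

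Grm5 and Homer2 lie on chromosome 7, as does Klk8, 291 and 265 measured genes away from it in the gene order of GRCm38.p6. Neither gene held a probe set that passed. The smallest unadjusted p on a Grm5 probe set was 0.0717 (limma adjusted p = 0.852), on probe set 4868335, which differed by 0.38 (SE 0.19).

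Relative use of exons, that is, whether a probe set differed between genotypes more than the rest of its gene, was tested with limma's diffSplice and a Simes p for each gene. Homer1 was the 1 gene of the 9 that passed (Simes adjusted p = 0.0108), where 1.69% of all genes passed. The other 8 had adjusted p-values of 0.709 to 0.988, with leading probe sets at -0.29 (4900351, Homer3) to 0.58 (4750298, Grm4, and 4524170, Grm8) relative to their genes. In between lay 5168666 of Grm3 at 0.27, 5483242 of Grm7 at 0.30, 4868335 of Grm5 at 0.33, 4337108 of Grm2 at 0.36 and 4862859 of Homer2 at 0.57.

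The Homer1 call came from probe set 5099689, which differed by 1.10 relative to the other Homer1 probe sets. It was at 6.69, 4.80, 5.48, 5.60 and 5.31 on knockout arrays 1 to 5, against 6.67, 4.73, 3.35, 3.02 and 4.16 on wild-type arrays 1 to 5. Array 1 was the highest of each genotype, and wild-type arrays 2 to 5 lay below all 5 knockout arrays. Its mean over the 10 arrays, 4.98, was just above the filter of 4.94. Its within-group SD was 1.13, against 0.10 to 0.46 for the other 22 Homer1 probe sets, while diffSplice takes the probe sets of a gene to share a common spread. When each probe set kept a variance of its own, Homer1 did not pass (Simes adjusted p = 0.999986) and 0.0367% of all genes did. On its own the probe set differed by 1.19 with an SE of 0.57 (limma adjusted p = 0.842). Without this probe set Homer1 did not pass either (Simes adjusted p = 0.988), nor without wild-type arrays 4 and 5 together (0.502). With 1 array left out, Homer1 passed in 7 of 10 diffSplice fits, all taking a common spread. The smallest Simes adjusted p was 2.36e-08, without wild-type array 1. Homer1 did not pass without wild-type array 3 (0.266), wild-type array 4 (0.252) or knockout array 1 (0.319).

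**Figure D3:**
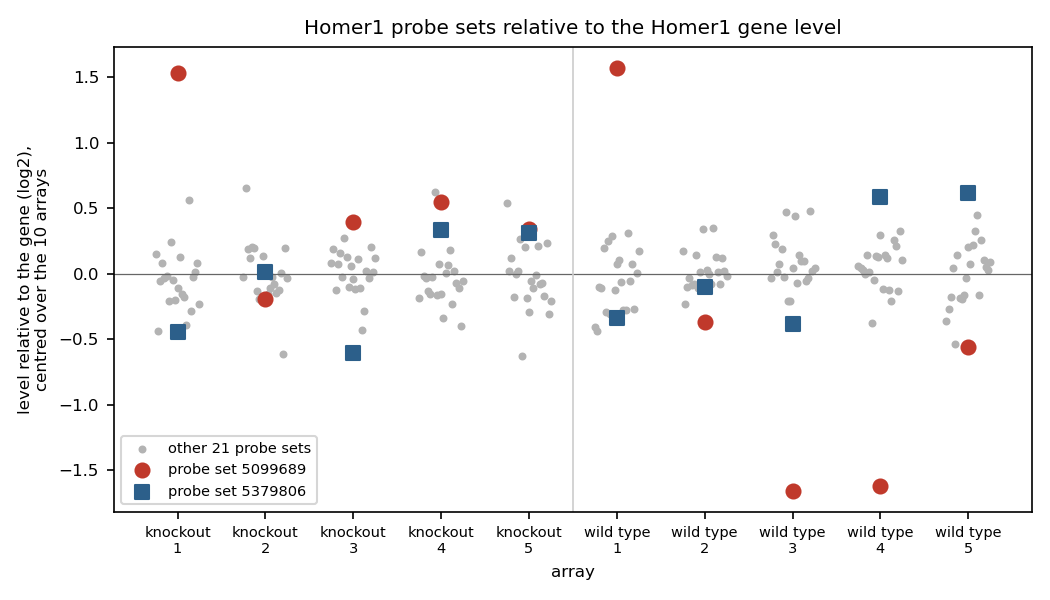
Each Homer1 probe set minus the Homer1 gene level (log2), centred over the 10 arrays, for knockout arrays 1 to 5 (left) and wild-type arrays 1 to 5 (right). Probe set 5099689 (red circles) ranges from -1.65 to 1.57 and is high on array 1 of both genotypes; probe set 5379806 (blue squares) lies between 0.31 and 0.62 on arrays 4 and 5 of both; the other 21 probe sets are grey.

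The other 22 Homer1 probe sets differed by -0.08 to 0.38 and none passed (limma). The higher ones were 5158373 at 0.38 (SE 0.21), 5364935 at 0.37 (SE 0.19), 4906552 at 0.22, 4638955 at 0.21, 4725497 at 0.21, 5369818 at 0.19, 4741996 at 0.17, 4324854 at 0.15, 5265609 at 0.11 and 4506475 at 0.10. Within 0.08 of 0 lay 4552192, 4403981, 5397705, 5231202, 5181791, 4908184, 4889194, 5104475, 4981176, 5454625, 4313906 and 5379806. Taking wild-type arrays 1 to 3 alone as the comparison, 9 of the 23 were higher and 14 lower in the knockout. By that comparison 49.5% of all 628415 probe sets were higher, of which 238335 belonged to a named, measured gene. At the gene level 34.1% of all genes were higher. The annotation used here gives a probe set its gene and not its exon, so none of these probe sets could be assigned to the short Homer1a form or to the long forms.

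Some probe sets parted from their gene by array number and not by genotype. Homer1 probe set 5379806 was at 8.50, 8.79, 8.25, 9.17 and 9.06 on knockout arrays 1 to 5, against 8.54, 8.78, 8.40, 9.01 and 9.12 on wild-type arrays 1 to 5. Arrays 4 and 5 of both genotypes were its 4 highest, although wild-type arrays 4 and 5 were the lowest for Homer1 as a whole. Homer2 probe set 4657637 was likewise highest on those 4 arrays, at 10.07, 10.42, 9.46, 10.54 and 10.69 on knockout arrays 1 to 5, against 9.85, 9.89, 10.03, 10.68 and 10.83 on wild-type arrays 1 to 5. The genotypes were nearly equal on both, with differences of -0.01 (SE 0.21) and -0.02 (SE 0.27). Both were picked out with their values already known. Relative to the gene, arrays 4 and 5 of both genotypes lay to one side of the other 6 arrays on 7 of the 144 probe sets (4.86%), beside 3.27% of all named probe sets. The other 5 were 4502948 of Grm2, 4676577 and 4732931 of Grm4, all higher on arrays 4 and 5, and 5200264 of Grm5 and 5602666 of Grm7, both lower there. The labels do not say what a shared array number stands for.

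**Figure D4:**
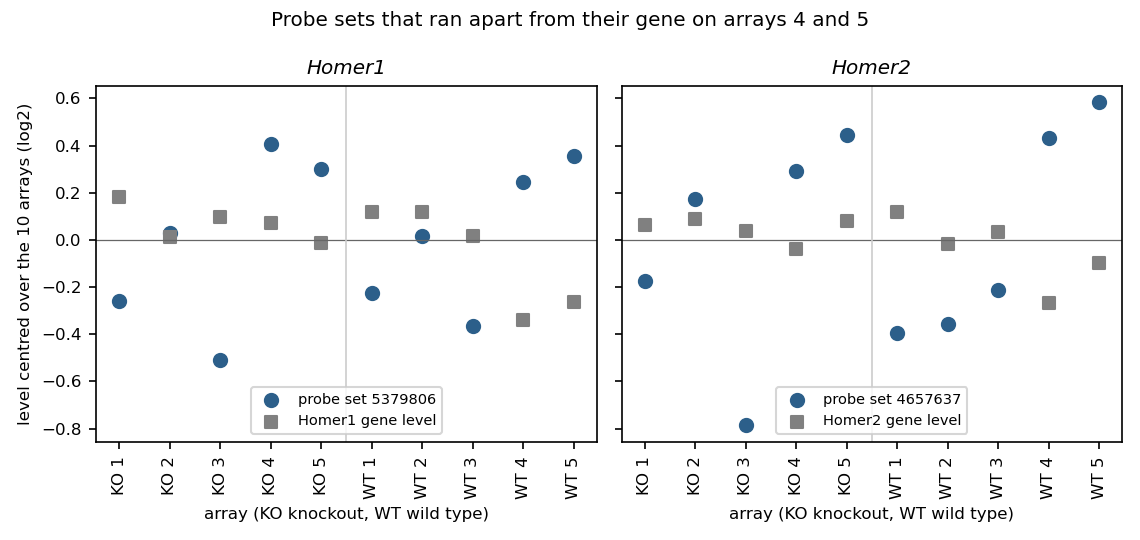
Homer1 probe set 5379806 and Homer2 probe set 4657637 (blue circles) with their gene levels (grey squares), each centred over the 10 arrays (log2), knockout arrays left and wild-type arrays right. Both probe sets are highest on arrays 4 and 5 of both genotypes, where the wild-type gene levels are lowest.

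The genes that act with these receptors did not pass at the gene level in any of 6 lists (limma, 0 of all measured members, where 0.0244% of all genes passed). Among genes of Gq signalling, the pathway of group I receptors, 9 of 16 were higher and 7 lower with a median of 0.03, and 0 had an unadjusted p under 0.05. Without wild-type arrays 4 and 5, 4 were higher and 12 lower with a median of -0.03, where 34.1% of all genes were higher. Protein kinase C alpha (Prkca) was at 0.13 (SE 0.08), phospholipase C beta 4 (Plcb4) at -0.16 (SE 0.12) and the inositol trisphosphate receptor Itpr3 at -0.10 (SE 0.08).

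Among genes of Gi/o signalling, the pathway of group II and III receptors, 13 of 18 were higher with a median of 0.09. Kcnj9 and Kcnj6, subunits of the G protein-gated potassium channels these receptors can open, had the smallest p-values. Kcnj9 was at 7.98, 8.21, 8.03, 8.06 and 8.25 on knockout arrays 1 to 5, against 7.88, 7.90, 7.89, 7.87 and 7.96 on wild-type arrays 1 to 5, with every knockout array above every wild-type array. The groups did not overlap for 1 of the 18 genes, beside 1.55% of all genes. The Kcnj9 difference was 0.21 (SE 0.07, limma adjusted p = 0.693). Kcnj6 differed by 0.21 (SE 0.08, limma adjusted p = 0.693), with wild-type array 3 inside the knockout range, and the adenylyl cyclase gene Adcy6 by 0.16 (SE 0.07). An unadjusted p under 0.05 was reached by 3 of the 18, beside 6.98% of all genes. Without wild-type arrays 4 and 5, 10 of 18 were higher and the median was 0.01, beside 34.1% and -0.05 among all genes, and Kcnj9 differed by 0.22.

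Among Homer ligands and scaffold partners 10 of 16 were higher with a median of 0.03, and 4 had an unadjusted p under 0.05, beside 6.98% of all genes. They were Dlgap1 at 0.19 (SE 0.07) and Dlgap2 at 0.18 (SE 0.07), scaffolds between PSD-95 and Shank proteins, the ryanodine receptor gene Ryr2 at 0.16 (SE 0.07) and Shank2 at 0.16 (SE 0.07). All knockout arrays lay above all wild-type arrays for Dlgap1, at 8.67 to 8.79 in the knockout and 8.47 to 8.65 in wild type, and for Dlgap2, at 8.66 to 8.82 in the knockout and 8.46 to 8.60 in wild type, while 1.55% of all genes had groups that did not overlap. Their limma adjusted p-values were 0.693 to 0.711. Without wild-type arrays 4 and 5, 8 of the 16 were higher and 8 lower with a median of 0.01, where 34.1% of all genes were higher, and Dlgap1 differed by 0.18 and Dlgap2 by 0.19.

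Among receptor regulators and binding proteins 10 of 18 were higher with a median of 0.04, and without wild-type arrays 4 and 5, 8 were higher and 10 lower with a median of -0.03. The receptor kinase gene Grk3 differed by 0.24 (SE 0.10) and the scaffold gene Grip1 by 0.14 (SE 0.07). Among genes of glutamate transport and metabolism 5 of 11 were higher with a median of -0.0069, and without those arrays 3 of 11 with a median of -0.09. The vesicular transporter gene Slc17a7 differed by 0.24 (SE 0.09) and the glial transporter gene Slc1a3 by 0.16 (SE 0.09). Markers of the basolateral amygdala, which include Slc17a7, were higher in 9 of 12 (median 0.17, list means 8.06 to 8.13 in the knockout and 7.77 to 8.06 in wild type) and in 8 of 12 without wild-type arrays 4 and 5 (median 0.08), and their part in these values was not tested.

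Activity-induced genes, with which Homer1a is usually grouped, showed no common direction. Of 19 measured, 8 were higher and 11 lower, with a median of -0.0087, and without wild-type arrays 4 and 5, 6 were higher and 13 lower with a median of -0.03. The transcription factor gene Egr1 differed by -0.20 (SE 0.08, limma adjusted p = 0.693), Nr4a2 by 0.26 (SE 0.13) and the phosphatase gene Dusp1 by 0.20 (SE 0.11). The list mean, relative to all arrays, was -0.15 on wild-type array 4 and 0.03 on wild-type array 5, the arrays on which Homer1 was lowest.

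**Figure D5:**
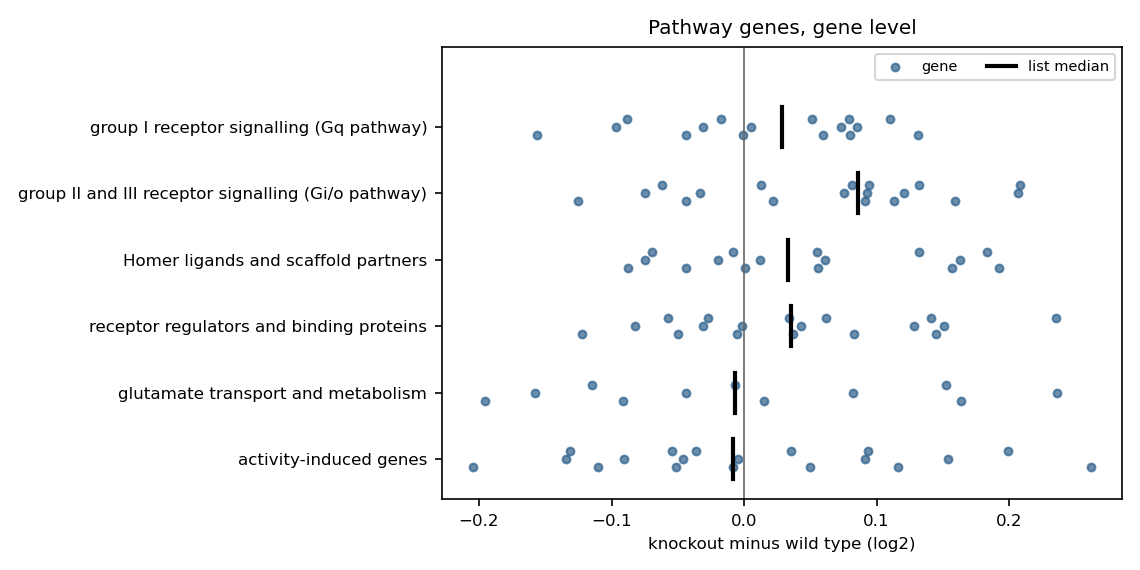
Knockout minus wild type (log2) of every measured gene of 6 lists (points), with the list median (black bar). Points lie on both sides of 0 in every list, and the medians run from -0.0087 to 0.09.

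The genes whose levels followed each gene most closely over the 10 arrays, out of 16367, are given by Pearson correlation as a description. They were Klf13 and 1600014C10Rik for Grm2 (0.99 and 0.93), Picalm and Plekhj1 for Grm3 (0.95 and 0.90), Zfhx3 and Gli3 for Grm4 (0.97 and 0.94), and B3galt2 and Slf1 for Grm5 (0.95 each). For Grm7 they were Grn and Dnaja3 (0.94 and 0.93), for Grm8 Gpr75 and Kcnq3 (0.95 and 0.93), for Homer1 Med27 and Alg6 (0.96 each), for Homer2 Zfp287 and Birc2 (0.96 each) and for Homer3 Tmem151a and Kcnj8 (0.93 and 0.90). Both genotypes and the arrays that stood apart enter all of these values.

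Excitatory neuron markers were higher in the knockout in 6 of 7 (median 0.11) and inhibitory neuron markers lower in 8 of 9 (median -0.12). Camk2a, a kinase of excitatory neurons, was at 11.15 ± 0.05 in the knockout and 11.04 ± 0.04 in wild type, and Gad1, which makes GABA, at 9.79 ± 0.10 in the knockout and 9.82 ± 0.22 in wild type (SD, n = 5 each). Myelin markers were lower in 13 of 13 (median -0.28, list means 8.09 to 8.51 in the knockout and 8.05 to 8.998 in wild type), with a median of -0.54 without wild-type arrays 4 and 5. Microglia markers were lower in 10 of 10 (median -0.06) and endothelium and blood markers in 5 of 6 (median -0.08). None of the excitatory, inhibitory, myelin and microglia markers passed at the gene level (limma, smallest adjusted p = 0.693). Among endothelium and blood markers 1 of 6 passed (limma adjusted p = 0.00315), where 0.0244% of all genes did. The part of all these markers in the values of the 9 genes was not tested.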

How the data were processed

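Amygdala RNA of neuropsin-/- and wild-type mice was measured on exon arrays, 5 per genotype. The deposited log2 values, 1 per probe set and array, were summarised by the authors with RMA in Expression Console, per the labels; the sources used here give no versions and no build of the array annotation. The array medians lay between 4.95 and 5.03. Of 1256831 probe sets, 318760 carried exactly 1 symbol through the platform annotation, dated symbols being updated through the GRCm38.p6 gene table where a synonym named 1 gene.

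Probe sets with a mean above 4.94 (628415) and genes with at least 3 of them (16367) were compared with limma version 3.58.1 in R version 4.3.3 (data.table version 1.17.8), on all 10 arrays without covariates, with Benjamini-Hochberg adjustment at 0.05; relative exon use was tested with diffSplice and Simes p-values. Scripts were tested on simulated data. Groups came from the sample titles. The number of arrays limits precision. Named were the 9 genes, each one's leading probe set for exon use and any with an unadjusted p under 0.01 or groups that do not overlap (none had), all Homer1 probe sets, the 2 or 3 genes of smallest p per list and the 2 most correlated genes; other named items were chosen with their values known. The genes and lists were chosen with earlier results of these data known. Same-numbered arrays of the genotypes, as deviations from the group means, correlated at 0.28, 0.08, 0.27, 0.41 and 0.24 for numbers 1 to 5, and since number 2 fell below 0.1 and the labels give no shared origin, the numbers were not taken to pair the arrays. Other normalizations, filters, summaries, variance models, a replicate block and left-out arrays were tried as alternatives. Another background correction and a slide block were not run, since scanner files were not used here.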

Additional observations from a re-analysis of the deposited data

Results flagged for a closer look

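A value is given here when 1 of the 5 arrays of a group lay far from the other 4, by Dixon's ratio of the gap to the group's range (limit 0.71). Of 80 groups examined (the 9 genes, every Homer1 probe set and the other leading probe sets, in each genotype), 3 held such an array; chance gives about 1 in 20. Grm5 was at 10.5477 on knockout array 3, where the other knockout arrays lay between 10.35 and 10.40 (ratio 0.766). Homer1 probe set 4908184 was at 10.0972 on knockout array 4, where the other knockout arrays lay between 9.93 and 9.96 (ratio 0.846). Homer1 probe set 4403981 was at 8.49226 on knockout array 1, where the other knockout arrays lay between 7.56 and 7.66 (ratio 0.892).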

How the results depend on the processing

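None of the 9 genes passed at the gene level in any of 20 other settings (limma, 2 to 6 of all genes passing, 0 to 0 of the 9 with 1 array left out), and no probe set of theirs in 18 (0 to 102 of all probe sets passing, 0 to 0 of the 144 with 1 array left out). The count of all genes past the threshold was 2 without knockout array 2, 3 or 5 and when genes with 1 or more probe sets were kept, against 4 in the main test. With the replicate number as a replicate block, which is a hint from the data only (4 of 5 knockout arrays correlated best with their own number), 0 of the 9 passed, 3 of all genes did against 4 without it, and 0 of all probe sets did against 15. The sign of the difference of Grm2, Grm4, Grm5 and Homer2 held in all 20 settings; Grm4 ranged from -0.28 to -0.14, Grm5 from 0.03 to 0.11, Grm2 from -0.09 to -0.01 and Homer2 from 0.0013, without wild-type arrays 4 and 5, to 0.13. Grm3 turned positive when arrays were centred on their medians (0.0069), without the intensity filter (0.0044), with the median over probe sets (0.045) and with 1 array left out (-0.058 to 0.066 over 10 fits). Grm7 turned negative with the median over probe sets (-0.045) and ranged from -0.0045 to 0.073 with 1 array left out. Grm8 turned negative with the stricter filter (-0.0012) and without wild-type arrays 4 and 5 (-0.063), and ranged from -0.023 to 0.083 with 1 array left out. Homer1 was at -0.013 without wild-type arrays 4 and 5, and Homer3 at 0.056 with the median over probe sets. The causes were not tested.

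The count of genes among the 9 with groups that do not overlap was 0, and 0 to 1 with 1 array left out; it was 1 (Grm4) without wild-type array 5 and 1 without wild-type arrays 4 and 5, where 7.99% of all genes did not overlap. The count of the 9 that passed for relative exon use was 1, and 0 to 1 with 1 array left out. It was 0 with the stricter intensity filter, which drops probe set 5099689 (Homer1 then led by 0.30), 0 without wild-type arrays 4 and 5 (0.71), 0 when every probe set kept its own variance, where another probe set led at -0.22, and 0 without the leading probe set (0.30), an alternative chosen after seeing the data, as were the list counts without wild-type arrays 4 and 5. Homer1 passed in 12 of these 19 settings, the replicate block included (Simes adjusted p = 0.000517), and its leading value was 0.80 to 1.65 with 1 array left out. The count over all genes ranged from 6 to 623.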
